A study of Mus musculus with 6 samples.

Results

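TXNIP, ARRDC4, MLXIPL, MLXIP and MLX make up the glucose-sensing arm of the MYC-like transcription factor network together with its best known target genes. They were taken by their Ensembl identifiers, which are ENSG00000265972.6 (TXNIP), ENSG00000140450.9 (ARRDC4), ENSG00000009950.16 (MLXIPL), ENSG00000175727.14 (MLXIP) and ENSG00000108788.12 (MLX), and are 5 of the 60649 genes in the count table. All 5 had reads in every tumor and were among the 24545 genes tested.

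MLXIP (also called MondoA) and MLXIPL (also called ChREBP) are the Mondo factors. Each pairs with MLX to bind DNA at carbohydrate response elements, and each is drawn to the nucleus when glucose 6-phosphate builds up in the cell. TXNIP and ARRDC4 are alpha-arrestins whose genes are among the strongest known targets of these factors. Both proteins promote removal of glucose transporters from the cell surface, so that the pathway limits further glucose uptake. MLXIPL is best known in liver and fat, while MLXIP is found in many tissues and in tumor lines. Because glucose acts first on where the factors sit in the cell, their targets are usually read as the output and the factor mRNAs as the supply.

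RNA was sequenced from 6 xenograft tumors of LAPC-4, a human hormone-sensitive prostate cancer line with wild-type androgen receptor. All 6 mice were males of the CB.17 scid/scid strain, which lacks B and T cells, bought at 6 to 8 weeks of age, and every animal ate the HiGI diet until randomization. Diets were assigned when tumors averaged 200 mm3, and mice were killed after a 4-hour fast once the tumor reached 800 mm3. The HiGI group (tumors 16, 20 and 26) stayed on a Western diet whose carbohydrate was sucrose, and the LoGI group (tumors 19, 27 and 28) received one based on high-amylose starch with maltodextrin. Both diets drew 48% of their energy from carbohydrate. The tumors represent 1 cell line. Libraries held 18749813 to 21550812 reads counted on genes, and levels are given as CPM, that is reads per 1000000 library reads, after TMM scaling, whose factors lay between 0.964 and 1.03. CPM was not divided by gene length, so levels were compared between tumors and not between genes. Markers of prostate epithelium and of other cell types were not looked up, because the human identifiers were not paired with symbols here. In these bulk samples, fewer cells carrying a transcript and less of it per cell cannot be told apart.

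TXNIP and ARRDC4 had higher mean levels in LoGI tumors, by 21.3% and 20.8%, and neither difference passed the test across all genes. The LoGI means of the 3 factor genes lay between -6.82% and 2.92% from the HiGI means, and none passed either. By the quasi-likelihood test of edgeR, adjusted over all genes tested by the Benjamini-Hochberg method, 0 of the 5 genes had an adjusted p under 0.05 in either direction. Across all genes, 0.367% were higher and 4.36% lower in LoGI tumors at that threshold, and 3.45% also reached a log2 fold change of 1 in either direction, the threshold the study used. At an unadjusted p under 0.05, 2 of the 5 genes were higher in LoGI tumors and none was lower, both in edgeR and in DESeq2. The DESeq2 Wald test also called 0 of the 5 after adjustment. Such p-values were common, as 11.9% of all genes tested, in either direction, lay below the 0.0396 of ARRDC4 in edgeR's quasi-likelihood test. The share of all genes in each direction at that unadjusted threshold was not counted.

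**Figure D1:**
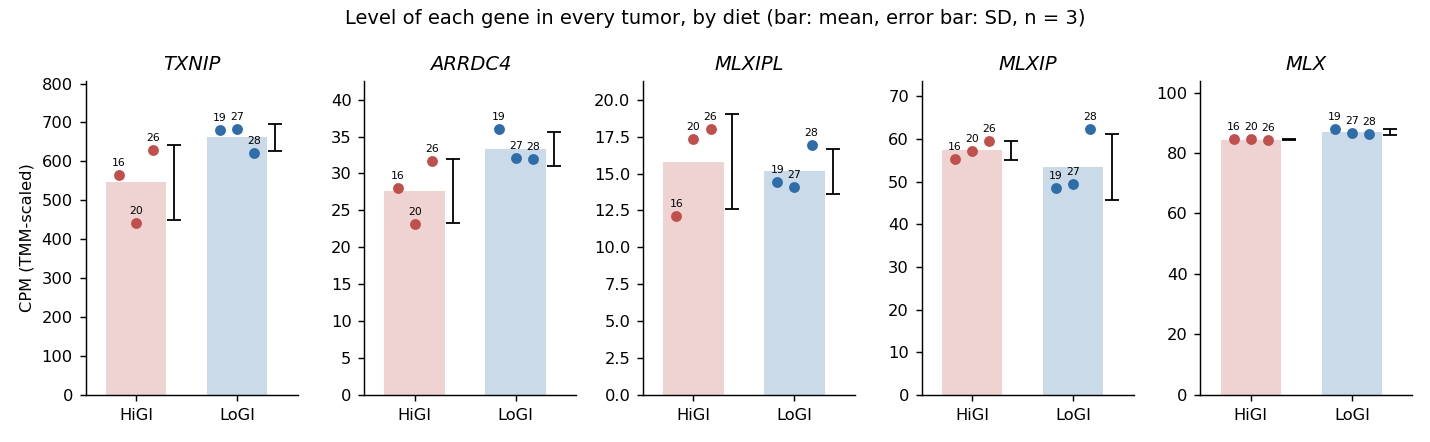
TMM-scaled CPM of each gene (vertical axis, from 0) in the 3 HiGI and 3 LoGI tumors, with tumor numbers beside the points, the mean as a bar and the SD as an error bar at its right. HiGI tumor 20 is the lowest for TXNIP (442 CPM) and for ARRDC4 (23.1 CPM), while MLX lies between 84.2 and 88.0 CPM in all 6 tumors.

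TXNIP encodes a protein that binds and inhibits thioredoxin and also restrains glucose uptake. It was measured at 565, 442 and 630 CPM in HiGI tumors 16, 20 and 26. In LoGI tumors 19, 27 and 28 it stood at 681, 683 and 622 CPM. HiGI tumor 20 was the lowest of all, and the diets overlapped, since HiGI tumor 26 lay above LoGI tumor 28. Under upper-quartile scaling these tumors stood at 633 and 634 CPM, in the other order, and the diets did not overlap. The mean was 546 ± 95.3 CPM (SD, n = 3) in HiGI and 662 ± 34.8 CPM (SD, n = 3) in LoGI tumors. The log2 fold change of LoGI over HiGI was 0.28 (SE 0.11, 95% interval 0.05 to 0.51), with an unadjusted p of 0.0225 and an adjusted p of 0.239 in edgeR's quasi-likelihood test. The interval spans folds from 1.03 to 1.43.

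The TXNIP result depended on HiGI tumors 20 and 26 in opposite ways. Without tumor 20 the log2 fold change was 0.15 with an adjusted p of 0.629, and without tumor 26 it was 0.40 with an adjusted p of 0.0448, both from edgeR's quasi-likelihood test. TXNIP also passed, with an adjusted p of 0.0434 and the same log2 fold change of 0.28, when every gene with at least 1 read was kept. In that fit edgeR gave the 5 genes 146500 degrees of freedom in place of 14.8. Whether this alone changed the call was not tested.

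ARRDC4 encodes an alpha-arrestin closely related to TXNIP and is used, like it, as a readout of Mondo factor activity. It was measured at 28.1, 23.1 and 31.7 CPM in HiGI tumors 16, 20 and 26, from 464 to 611 reads. In LoGI tumors 19, 27 and 28 it stood at 36.0, 32.2 and 31.9 CPM, from 608 to 687 reads. The order of the HiGI tumors was that seen for TXNIP, with tumor 20 lowest and tumor 26 highest. All LoGI values lay above all HiGI values, as the groups did not overlap, in either direction, for 18.5% of all genes tested. The gap was narrow, as HiGI tumor 26 (exact 95% binomial interval 29.2 to 34.3 CPM) and LoGI tumor 28 (29.4 to 34.6 CPM) differed by less than counting error. When reads were scaled by library totals alone, the 2 tumors changed places, at 31.8 and 30.8 CPM, and the groups overlapped.

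The mean of ARRDC4 was 27.6 ± 4.32 CPM (SD, n = 3) in HiGI and 33.4 ± 2.31 CPM (SD, n = 3) in LoGI tumors. Its log2 fold change was 0.27 (SE 0.12, 95% interval 0.01 to 0.53), with an unadjusted p of 0.0396 and an adjusted p of 0.332 in edgeR's quasi-likelihood test. It passed under none of the 15 other settings tried, and ran from 0.16 without HiGI tumor 20 to 0.39 without HiGI tumor 26.

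**Figure D2:**
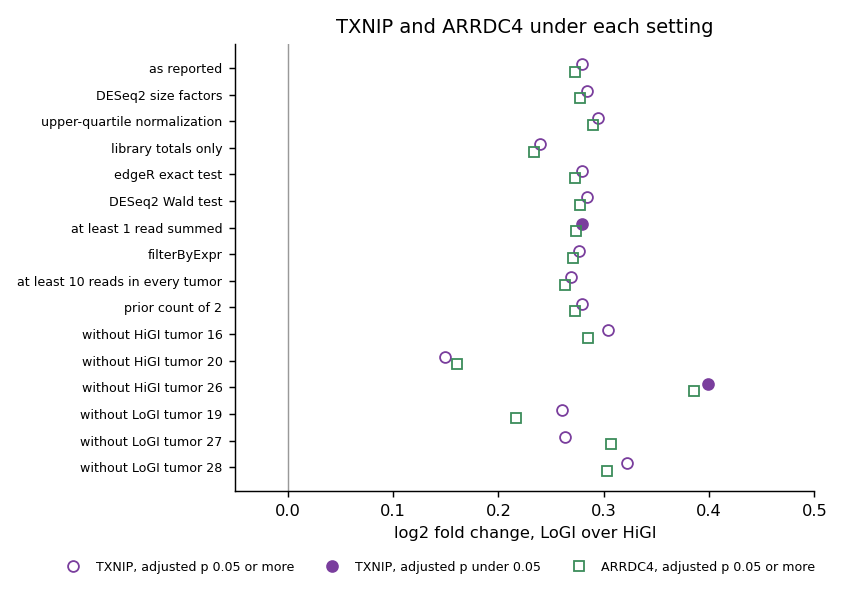
Log2 fold change of LoGI over HiGI (horizontal axis) for TXNIP (circles) and ARRDC4 (squares) under the reported setting and the 15 others, with filled symbols where the adjusted p was under 0.05. All values are positive, both genes fall to their lowest without HiGI tumor 20 (0.15 and 0.16) and rise to their highest without HiGI tumor 26 (0.40 and 0.39), and 2 TXNIP symbols are filled.

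The diet difference was nearly the same for the 2 arrestin genes. Within a library, the ratio of TXNIP to ARRDC4 reads needs no scaling, and it was 20.1, 19.1 and 19.9 in HiGI tumors 16, 20 and 26. In LoGI tumors 19, 27 and 28 it was 18.9, 21.2 and 19.5. These ratios carry the difference in length between the genes and are compared only between tumors. The groups overlapped, and on the log2 scale LoGI minus HiGI was 0.01 (95% interval -0.14 to 0.16, p = 0.9 by an exact two-sided permutation test, adjusted p = 1 over 2 ratios). With 3 tumors per diet, the exact permutation test cannot go below p = 0.1.

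TXNIP and ARRDC4 also varied together from tumor to tumor. Over the 6 tumors, Pearson's r of their log2 CPM was 0.97 (exact permutation p = 0.0111) and Spearman's rho was 0.89 (exact permutation p = 0.0333). Among the 10 pairs of the 5 genes this was the pair with the largest r, and after Benjamini-Hochberg adjustment over those pairs the exact permutation p was 0.111 for r and 0.333 for rho, so neither passed. Without tumors 16 and 20, the 2 farthest from the median of TXNIP, r was 0.61 over 4 tumors. Leaving out the farthest tumors narrows the range, so this r cannot tell whether the relation held without those HiGI tumors. Taken as deviations from each diet's mean, r was 0.94. The correlations were computed after the values had been seen.

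ARRDC4 was near the top of all genes by this measure of likeness. Of 15804 other genes with at least 10 reads in every tumor, ARRDC4 ranked 32nd for its r with TXNIP, with 0.196% of genes higher. Seen from ARRDC4, TXNIP ranked 27th. On deviations from the diet means, the ranks were 183rd and 146th. These ranks are a description over 6 libraries that share their scaling, and the genes ranked higher were not named, since they have identifiers only. By the same measure MLX ranked 2358th, MLXIPL 10568th and MLXIP 12084th for likeness to TXNIP, with r of 0.60, -0.24 and -0.41. On deviations from the diet means they ranked 8506th, 9914th and 9572nd, with r of -0.06, -0.23 and -0.19.

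**Figure D3:**
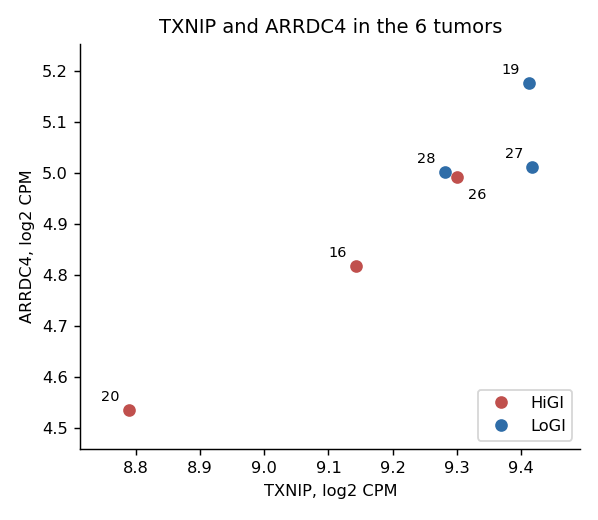
Log2 CPM of TXNIP (horizontal axis) against ARRDC4 (vertical axis), with 1 point per tumor, colored by diet and labeled with the tumor number. HiGI tumor 20 is lowest on both axes, HiGI tumor 16 next, and HiGI tumor 26 lies beside LoGI tumor 28.

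MLXIP, the Mondo factor of many tissues and tumor lines, had a lower mean in LoGI tumors, with a 95% interval that included 0. It was measured at 55.2, 57.2 and 59.6 CPM in HiGI tumors 16, 20 and 26. In LoGI tumors 19, 27 and 28 it stood at 48.5, 49.4 and 62.3 CPM. LoGI tumor 28 was the highest of all and the other two LoGI tumors the lowest, so that the LoGI values enclosed all HiGI values. The mean was 57.3 ± 2.17 CPM (SD, n = 3) in HiGI and 53.4 ± 7.75 CPM (SD, n = 3) in LoGI tumors. The log2 fold change was -0.10 (SE 0.11, 95% interval -0.33 to 0.13, adjusted p = 0.795 in edgeR's quasi-likelihood test). Without LoGI tumor 28 it was -0.23, with an adjusted p of 0.268 in the same edgeR test.

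MLXIPL, the Mondo factor of liver and fat, was read in every tumor, with 263 to 348 reads. It stood at 12.1, 17.3 and 18.0 CPM in HiGI tumors 16, 20 and 26. In LoGI tumors 19, 27 and 28 it stood at 14.4, 14.1 and 16.9 CPM. The HiGI tumors held both the lowest value (tumor 16) and the highest (tumor 26), and the LoGI tumors lay between them. The mean was 15.8 ± 3.24 CPM (SD, n = 3) in HiGI and 15.1 ± 1.54 CPM (SD, n = 3) in LoGI tumors. The log2 fold change was -0.06 (SE 0.15, 95% interval -0.39 to 0.27, adjusted p = 0.932 in edgeR's quasi-likelihood test). It changed sign without HiGI tumor 20 (0.01) or HiGI tumor 26 (0.05), and was -0.22 without HiGI tumor 16.

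The balance of the 2 Mondo factors was also compared within libraries. The ratio of MLXIP to MLXIPL reads was 4.56, 3.30 and 3.30 in HiGI tumors 16, 20 and 26 and 3.36, 3.50 and 3.68 in LoGI tumors 19, 27 and 28. The highest ratio was that of HiGI tumor 16, the tumor with least MLXIPL. The log2 ratio differed by -0.07 between LoGI and HiGI tumors (95% interval -0.51 to 0.38, p = 1 by an exact two-sided permutation test, adjusted p = 1 over 2 ratios). Without HiGI tumor 16 the difference was 0.09. No ratio between any 2 of the 5 genes, out of 10, separated the diets without overlap.

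MLX, the shared partner without which neither Mondo factor binds DNA, was the steadiest of the 5 genes. It was measured at 84.5, 84.7 and 84.2 CPM in HiGI tumors 16, 20 and 26. In LoGI tumors 19, 27 and 28 it stood at 88.0, 86.7 and 86.1 CPM. The highest and lowest tumors differed 1.04-fold, against 1.54-fold for TXNIP and 1.56-fold for ARRDC4. The spread within each diet (0.315% of the mean in HiGI and 1.07% in LoGI tumors) was below the 2.41% that counting alone gives at its mean number of reads. MLX did not overlap between diets, as held for 18.5% of all genes tested, and it did overlap under scaling by library totals. Its log2 fold change was 0.04 (SE 0.08, 95% interval -0.13 to 0.22, adjusted p = 0.91 in edgeR's quasi-likelihood test). Its intervals per tumor overlapped as well, from 80.0 to 88.4 CPM in HiGI tumor 26 and from 83.8 to 92.2 CPM in LoGI tumor 19 (exact 95% binomial).

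**Figure D4:**
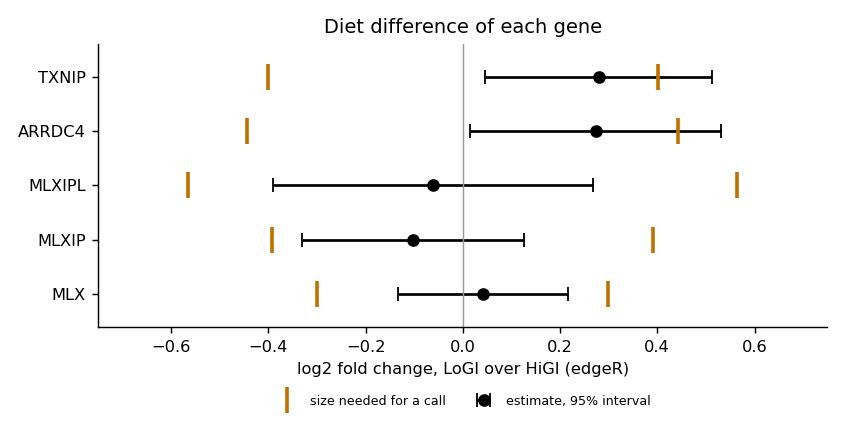
Log2 fold change of LoGI over HiGI (horizontal axis) for each gene, with its 95% interval from edgeR's quasi-likelihood fit and vertical ticks at the size it would have needed to be called. The intervals of TXNIP (0.05 to 0.51) and ARRDC4 (0.01 to 0.53) lie above 0 and those of MLXIPL, MLXIP and MLX include it, and no estimate reaches its ticks.

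The standard errors of edgeR's fit set what could be called, and they draw on the spread of other genes besides the gene's own. The largest unadjusted p among called genes was 0.00236 in edgeR's quasi-likelihood test. To reach it with the standard error of that fit, the fold needed was about 1.32 (TXNIP), 1.36 (ARRDC4), 1.48 (MLXIPL), 1.31 (MLXIP) or 1.23 (MLX). The 95% intervals of the factor genes leave room for folds of LoGI over HiGI from 0.763 to 1.20 for MLXIPL, from 0.795 to 1.09 for MLXIP and from 0.912 to 1.16 for MLX. The p-values that missed the threshold therefore do not show equal levels within those limits. Within HiGI tumors, TXNIP varied by 17.5% of its mean and ARRDC4 by 15.6%, and within LoGI tumors by 5.26% and 6.91%. Counting alone gives 0.91% and 4.05% at their mean number of reads.

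Against all genes, TXNIP and ARRDC4 lay above the upper quartile of log2 fold changes (0.17), and MLX, MLXIPL and MLXIP lay between the quartiles. The median log2 fold change over the genes tested was 0.00, with 5% below -1.45 and 5% above 0.75. The median of the 5 genes was 0.04. TXNIP and ARRDC4 had a higher log2 fold change than 83.8% and 83.3% of genes tested, MLX than 57.3%, MLXIPL than 40.7% and MLXIP than 35.5%. In unadjusted p, 9.40% of genes were below TXNIP and 11.9% below ARRDC4.

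**Figure D5:**
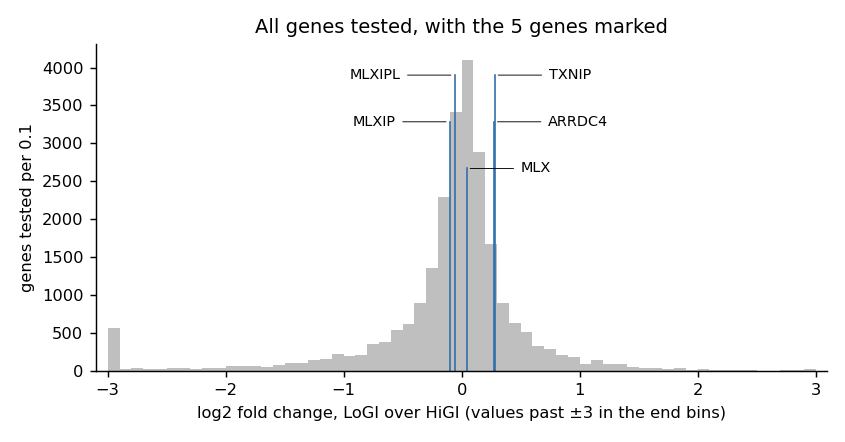
Number of genes tested (vertical axis) by log2 fold change of LoGI over HiGI (horizontal axis, in bins of 0.1, with values beyond the axis placed in the end bins), with lines at the 5 genes. TXNIP (0.28) and ARRDC4 (0.27) sit together on the right shoulder, and MLX (0.04), MLXIPL (-0.06) and MLXIP (-0.10) near the center.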

How the data were processed

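The authors mapped reads with BBMap to human and mouse genomes, discarded those found in mouse only, and used STAR and RSEM on the human genome (GRCh38.p13 per the labels). They deposited whole-number counts per gene, not normalized. How RSEM estimates became whole numbers is not given in the sources used here. Reads that fit both species were kept by that step, and their share in these genes was not tested. The sample records name mouse as the organism, and the counts are on human genes.

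Counts were scaled by TMM and compared with edgeR 4.0.16 in R 4.3.3 (glmQLFit and glmQLFTest, Benjamini-Hochberg over all genes whose reads in the 6 tumors added up to 10 or more). Standard errors and 95% intervals were derived from the quasi-likelihood F statistic. Tumor ratios used 0.5 added reads, an interval from the pooled SD, and an exact permutation test. DESeq2 1.42.0 was an alternative. The edgeR script was tested on simulated data whose changed genes differed by more than any of the 5 genes did. Differences of the size seen in these genes were not covered by it. Intervals cover counting error only where called binomial. Exact permutation p-values rest on these 6 tumors alone. The edgeR p-values and intervals rest on a spread between tumors that is estimated partly from the other genes tested. That fit therefore gave each of the 5 genes 14.8 degrees of freedom from 3 mice per diet.

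The genes and lists were chosen with earlier results of these data known. The genes to be named were the 5 genes, members of 7 lists of related genes (other alpha-arrestins, the MLX and MAX network, further Mondo targets, glucose entry, thioredoxin, ubiquitin ligases and regulators), and the 5 genes most like TXNIP and ARRDC4 that had a symbol. The reference tables used here are of mouse, so no list, cell type marker, human coordinate, promoter or protein sequence was looked up.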

Additional observations from a re-analysis of the deposited data

How the results depend on the processing

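Of the 15 other settings, 13 left TXNIP on the same side of the threshold, 15 did so for ARRDC4, MLXIP and MLX, and none called MLXIPL. TXNIP passed with at least 1 read summed (0.28) and without HiGI tumor 26, and its log2 fold change lay between 0.15 and 0.40 when single tumors were dropped. MLXIPL ran from -0.22 to 0.047 in those fits and changed sign in 2 of them. The log2 ratio of TXNIP to ARRDC4 (LoGI minus HiGI) ran from -0.039 to 0.046 and that of MLXIP to MLXIPL from -0.14 to 0.090, changing sign in 2 and 1 of the 6 fits. No other scaling changed a sign or a call among the 5 genes. With library totals only, the log2 fold change was 0.24 for TXNIP, 0.23 for ARRDC4, -0.10 for MLXIPL, -0.14 for MLXIP and 0.0015 for MLX.

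At an adjusted p under 0.05, the count of genes higher in LoGI (90) became 59 with library totals only, 157 with edgeR's exact test, 239 with at least 1 read summed and 47 when every tumor had to hold 10 reads, and ran from 21 to 128 when single tumors were dropped. Under that filter of 10 reads the count lower (1071) was 495, and the number past the study's threshold (847) was 310. The cause was not tested. The alternatives for the gene lists were not run. The sample numbers do not pair tumors across diets. Groups of 3 are too small to single out a tumor by its gap to the others.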
